A study of Mus musculus with 4 samples.

Results

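Primary microcephaly is a recessive disorder in which the brain is small at birth, and most of its known genes encode proteins of the centrosome and the mitotic spindle. The 9 genes described here are Aspm, Cdk5rap2, Mcph1, Wdr62, Cenpj, Stil, Cep135, Cep152 and Cit. They are taken by name from that disease class, with earlier results of these data known, and all 9 were found among the 27293 genes of the deposited count table. RNA was sequenced from telencephalic tissue of C57BL/6 mice at E13 in 4 libraries, 2 labelled WT (WT 1 and WT 2) and 2 labelled STINGf/f;Nestin-Cre (cKO 1 and cKO 2). STING is an adaptor of innate immune signalling that responds to DNA in the cytosol. Nestin-Cre recombines floxed alleles in neural progenitors and the cells they give rise to, so other cells of the tissue keep the gene. The comparison asks whether the levels of these genes differ in the developing forebrain when STING is deleted from its progenitors. Nothing in the labels says whether the libraries came from separate embryos or litters, so p-values measure only the spread between these 4 samples. The title of WT 2 carries an abbreviation, nes, that the title of WT 1 does not carry and that the labels do not explain.

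Radial glia, the progenitors of the cortex, divide at the surface of the ventricle. In each cycle a progenitor duplicates its centrioles, gathers pericentriolar material around them, orients its spindle and finally cleaves between its daughter cells. Failure of these steps slows mitosis, and progenitors then leave the cycle early or die, so that fewer neurons are made. Aspm, Wdr62 and Cdk5rap2 act at the spindle pole, whereas Cep152, Stil, Cep135 and Cenpj build the centriole. Mcph1 times chromosome condensation and takes part in the DNA damage response, and Cit completes cytokinesis. In bulk tissue, fewer dividing cells and less RNA per dividing cell cannot be told apart.

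Genes that peak in the dividing phases of the cell cycle often carry 3 short promoter motifs, and these were searched because the 9 genes serve the same division. The CHR element (TTTGAA or TTCGAA) and the CCAAT box (CCAAT) are known from genes of late cycle, and the E2F site (TTCCCGC or TTGGCGC) from genes of DNA synthesis. RefSeq start sites of build GRCm38.p6 gave a window of 250 bases before and 50 after the start for 8 of the 9 genes, all but Mcph1, and both strands were read. The 4 windows with the most matches are shown 5′ to 3′ on the strand of the gene, with every match in capitals (ATTGG is CCAAT read on the other strand). They lie at chr1:139454523-139454822 (+ strand) for Aspm, chr7:30280372-30280671 (- strand) for Wdr62, chr4:114999868-115000167 (+ strand) for Stil and chr2:125625064-125625363 (- strand) for Cep152.
Aspm: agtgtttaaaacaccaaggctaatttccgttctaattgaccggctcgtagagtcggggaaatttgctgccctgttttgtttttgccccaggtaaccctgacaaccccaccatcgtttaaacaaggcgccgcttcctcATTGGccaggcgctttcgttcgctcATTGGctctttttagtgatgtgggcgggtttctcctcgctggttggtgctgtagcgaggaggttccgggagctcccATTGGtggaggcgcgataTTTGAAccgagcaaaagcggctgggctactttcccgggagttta
Wdr62: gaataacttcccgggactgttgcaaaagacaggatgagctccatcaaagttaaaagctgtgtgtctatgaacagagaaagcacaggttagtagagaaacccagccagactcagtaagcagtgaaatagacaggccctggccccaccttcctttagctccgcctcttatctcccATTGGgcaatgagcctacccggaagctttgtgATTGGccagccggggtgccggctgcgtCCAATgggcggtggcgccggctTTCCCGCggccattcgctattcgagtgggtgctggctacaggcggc
Stil: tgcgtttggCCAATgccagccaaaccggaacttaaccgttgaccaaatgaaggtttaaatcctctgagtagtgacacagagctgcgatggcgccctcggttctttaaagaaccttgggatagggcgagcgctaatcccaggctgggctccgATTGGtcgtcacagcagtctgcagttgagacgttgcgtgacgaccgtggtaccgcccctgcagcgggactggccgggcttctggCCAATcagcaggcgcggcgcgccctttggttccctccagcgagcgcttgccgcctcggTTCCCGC
Cep152: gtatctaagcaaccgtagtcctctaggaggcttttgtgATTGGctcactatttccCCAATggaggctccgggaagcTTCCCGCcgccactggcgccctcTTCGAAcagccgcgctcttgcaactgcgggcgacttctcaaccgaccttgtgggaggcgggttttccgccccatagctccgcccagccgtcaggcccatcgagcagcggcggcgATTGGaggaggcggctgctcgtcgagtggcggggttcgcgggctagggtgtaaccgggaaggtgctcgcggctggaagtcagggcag
The Aspm window held 3 CCAAT boxes and a CHR element, the Wdr62 and Stil windows each held 3 CCAAT boxes and an E2F site, and the Cep152 window held all 3 kinds of motif. A CCAAT box was present in 5 of the 8 windows, against 37.4% of 32851 promoter windows of the same length in the genome. A CHR element was present in 3 of 8 (Aspm, Cdk5rap2 and Cep152), against 19.2% of all windows, and an E2F site in 3 of 8 (Wdr62, Stil and Cep152), against 6.81%. Among 11 windows of proliferation list genes, a CCAAT box was more frequent still, in 10 of 11 (90.9%). A CHR element and an E2F site were in 5 of 11 each (45.5%), close to the 3 of 8 here. Those 11 were not limited to 1 window per gene, as the 8 were, and not every gene of that list had a window. All 3 motifs stood together in 0.371% of all windows. None of these letters was found in the windows of Cenpj and Cit, whose RefSeq start sites lie 3579 and 378 bases from the gene start in GENCODE. A match is a run of letters and not a site shown to be bound.

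Total counts were 17209654 to 18533391 per library, so that 3 counts corresponded to 0.162 to 0.174 CPM (counts scaled to library size), far below each of the 9 genes. The target itself gave no check of the labels, since Tmem173, the STING gene, had 20 and 19 counts in the WT libraries and 18 and 22 in the cKO libraries (log2 fold change 0.02 ± 0.45 SE, adjusted p = 0.9999, Benjamini-Hochberg, by the quasi-likelihood test of edgeR). Directions below therefore rest on the labels, and cKO stands for the libraries labelled so. Libraries also stood apart in ways that genotype does not follow. Summed meningeal and mesenchymal markers (6 genes) were at 283 CPM in WT 1 and at 39.7 to 75.6 CPM in the others, and summed counts of 4 Y-linked genes were 0 in WT 2 and 1848 to 3002 in the others. Forebrain markers were present in all 4 libraries, with Emx1 at 101 to 138 CPM, and so were ventral ones, with Dlx1 at 245 to 387 CPM.

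At the spindle pole, Aspm, a protein of microtubule minus ends and the gene most often mutated in the disorder, was measured at 77.9 and 87.1 CPM in WT 1 and WT 2 and at 103 and 71.7 CPM in cKO 1 and cKO 2 (scaled by TMM factors throughout). The highest and the lowest library were thus both cKO, and the groups overlapped. The gene (ENSMUSG00000033952, chr1:139454772-139494091, + strand) averaged 82.5 ± 6.45 CPM in WT and 87.4 ± 22.2 CPM in cKO (SD, n = 2), a 1.06-fold ratio with a 95% interval of 0.774 to 1.45. The difference of 4.92 CPM between the group means was smaller than the gap of 31.4 CPM between the cKO libraries.

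Wdr62, a spindle pole scaffold (ENSMUSG00000037020, chr7:30240138-30280419, - strand), gave 34.8 and 33 CPM in WT 1 and WT 2 and 35.2 and 40.7 CPM in cKO 1 and cKO 2. Both cKO libraries lay above both WT libraries, although cKO 1 exceeded WT 1 only narrowly. Its group means were 33.9 ± 1.29 CPM in WT and 38 ± 3.92 CPM in cKO (SD, n = 2), 1.12-fold apart (95% interval 0.85 to 1.48). Of its exon bases, 264 (4.6%) are shared with Thap8 on the opposite strand, and Thap8 itself had 1 to 7 counts.

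Cdk5rap2, which recruits gamma-tubulin rings to the centrosome (ENSMUSG00000039298, chr4:70216856-70410443, - strand), stood at 124 and 134 CPM in WT 1 and WT 2 and at 144 and 136 CPM in cKO 1 and cKO 2. The groups did not overlap, and WT 2 and cKO 2 lay close together. Mean levels were 129 ± 6.97 CPM in WT and 140 ± 5.4 CPM in cKO (SD, n = 2), a 1.08-fold ratio (95% interval 0.86 to 1.36). The pseudogene Ywhaq-ps3 shares 365 of its exon bases (2.81%) on the same strand. Reads there fit both genes by position, and how they were counted was not examined.

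Among the centriole genes, Cep152, the scaffold that brings the kinase PLK4 to the mother centriole (ENSMUSG00000068394, chr2:125563088-125625113, - strand), showed the highest ratio of the 9. Its levels were 20.4 and 22.8 CPM in WT 1 and WT 2 against 28.7 and 25.6 CPM in cKO 1 and cKO 2, so both cKO libraries exceeded both WT libraries. The difference between group means (5.6 CPM) exceeded the larger gap within a group (3.12 CPM, between the cKO libraries). Among the other genes of the 9 this was so only for Cdk5rap2, and narrowly (10.6 against 9.86 CPM). The means of 21.6 ± 1.65 CPM in WT and 27.2 ± 2.2 CPM in cKO (SD, n = 2) gave a log2 fold change of 0.33 ± 0.18 (SE), or 1.26-fold with a 95% interval of 0.938 to 1.69. By the quasi-likelihood test of edgeR the adjusted p was 0.9999 (Benjamini-Hochberg) and did not pass.

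Stil, which joins PLK4 and SAS6 to start a new centriole (ENSMUSG00000028718, chr4:115000159-115043196, + strand), had 40 and 36.5 CPM in WT 1 and WT 2 and 47.1 and 34.7 CPM in cKO 1 and cKO 2. As for Aspm, cKO 1 was highest and cKO 2 lowest. Means were 38.3 ± 2.46 CPM in WT and 40.9 ± 8.74 CPM in cKO (SD, n = 2), 1.07-fold apart (95% interval 0.778 to 1.46).

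Cep135, a protein of the centriolar cartwheel (ENSMUSG00000036403, chr5:76588698-76646466, + strand), followed the same order of cKO libraries, at 24.8 and 20.7 CPM in WT 1 and WT 2 and 25.9 and 17.1 CPM in cKO 1 and cKO 2. It was the single gene of the 9 with a mean below that of WT, 21.5 ± 6.17 CPM against 22.8 ± 2.86 CPM (SD, n = 2). The log2 fold change was -0.08 ± 0.24 (SE), and its 95% interval of -0.64 to 0.47 included 0.

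Cenpj, which sets the length of the centriole (ENSMUSG00000064128, chr14:56526761-56575425, - strand), gave 28.9 and 30.6 CPM in WT 1 and WT 2 and 36.1 and 30.1 CPM in cKO 1 and cKO 2. Only cKO 1 lay outside the narrow range of the other libraries. Group means were 29.7 ± 1.21 CPM in WT and 33.1 ± 4.26 CPM in cKO (SD, n = 2), 1.11-fold apart (95% interval 0.834 to 1.49).

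Mcph1, microcephalin, restrains condensin II before mitosis. The gene (ENSMUSG00000039842, chr8:18595131-18803189, + strand) was measured at 15.8 and 13.8 CPM in WT 1 and WT 2 and at 19.6 and 13.4 CPM in cKO 1 and cKO 2. Again the cKO libraries bracketed the WT libraries. Means were 14.8 ± 1.43 CPM in WT and 16.5 ± 4.42 CPM in cKO (SD, n = 2), and the 1.11-fold ratio had the widest log2 standard error of the 9 genes, 0.25 (95% interval 0.753 to 1.65). Antisense Gm16725 shares 190 of its exon bases (2.43%) and had 0 or 1 count per library, whereas Angpt2, on the opposite strand within the gene, shares none.

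Cit, citron kinase, holds the midbody together at the end of cytokinesis. Its counts (ENSMUSG00000029516, chr5:115845278-116008947, + strand) corresponded to 62.3 and 58.1 CPM in WT 1 and WT 2 and to 61.5 and 72.6 CPM in cKO 1 and cKO 2. The cKO 2 library was highest and the other 3 lay together, so the groups overlapped. Group means of 60.2 ± 2.99 CPM in WT and 67.1 ± 7.85 CPM in cKO (SD, n = 2) were 1.12-fold apart (95% interval 0.862 to 1.44).

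**Figure D1:**
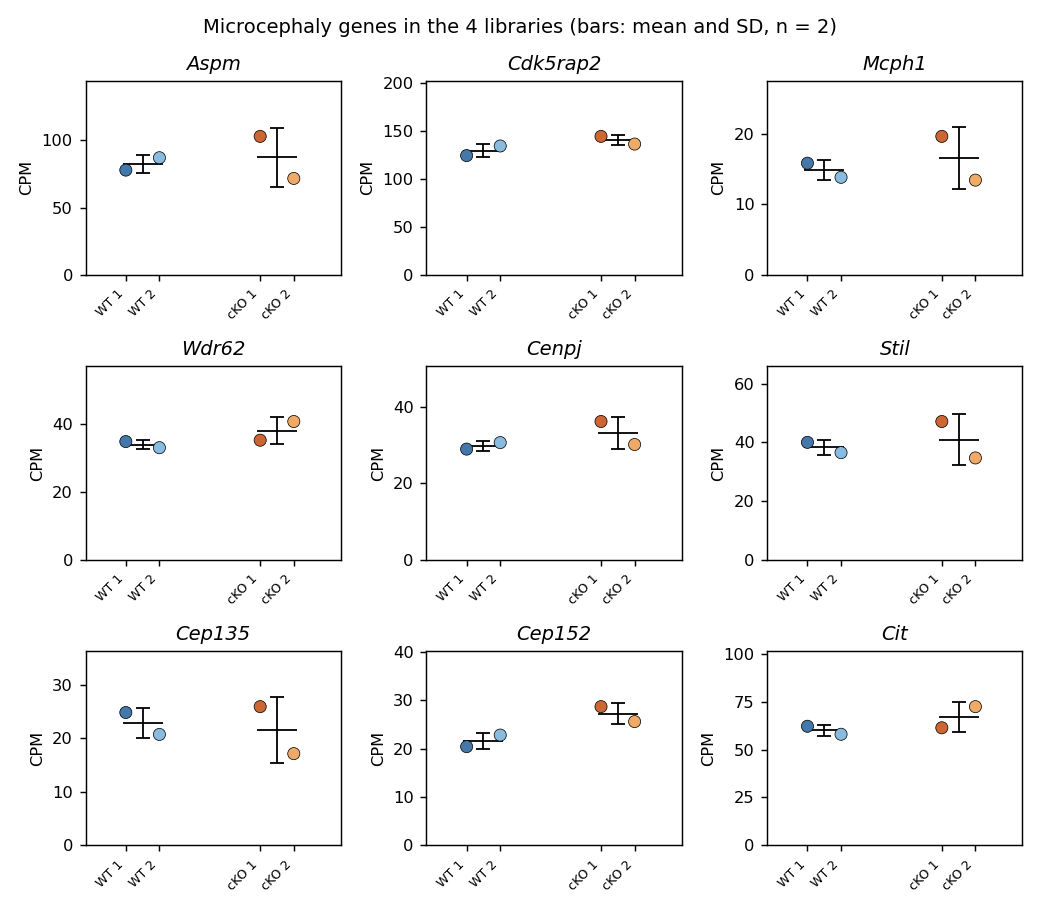
Each panel plots the level of 1 gene in CPM, from 0, in WT 1, WT 2, cKO 1 and cKO 2 (points), with the mean and SD of each group of 2 libraries (bars). In 7 panels cKO 1 is the highest point, in Wdr62 and Cit cKO 2 is.

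The study called genes that differed 2-fold or more with p up to 0.05 before adjustment, and 0 of the 9 genes met both, where 0.142% of the 16145 genes tested were called higher in cKO and 0.669% lower (23 and 108 genes, but 57 and 47 without WT 1). All 9 had passed the filter on low counts. After Benjamini-Hochberg adjustment p was 0.9999 for each of the 9 by the quasi-likelihood test of edgeR. Over all genes 0% passed an adjusted p of 0.05, also by DESeq2, while 199 genes (1.23%) had an unadjusted p of at most 0.05 by edgeR. Unadjusted p-values of the 9 ran from 0.109 (Cep152) to 0.74 (Cep135). A 2-fold difference in either direction lay outside the 95% interval of each of the 9 genes, the highest bound being 1.69-fold (Cep152) and the lowest 0.642-fold (Cep135). Smaller differences remained within the error.

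Ratios stood above 1 for 8 of the 9 genes, against 47.9% of all genes tested. The median log2 fold change of the 9 was 0.16 (1.11-fold), beside -0.01 over all genes. Both cKO libraries exceeded both WT libraries for 3 of 9 (Cdk5rap2, Wdr62 and Cep152), against 11.0% of all genes, and both lay below for 0 of 9, against 10.8%. The median depended on 1 library, being 0.02 without cKO 1 and 0.29 without cKO 2, and without cKO 1 the log2 fold changes of Aspm, Mcph1 and Stil were -0.20, -0.14 and -0.14.

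**Figure D2:**
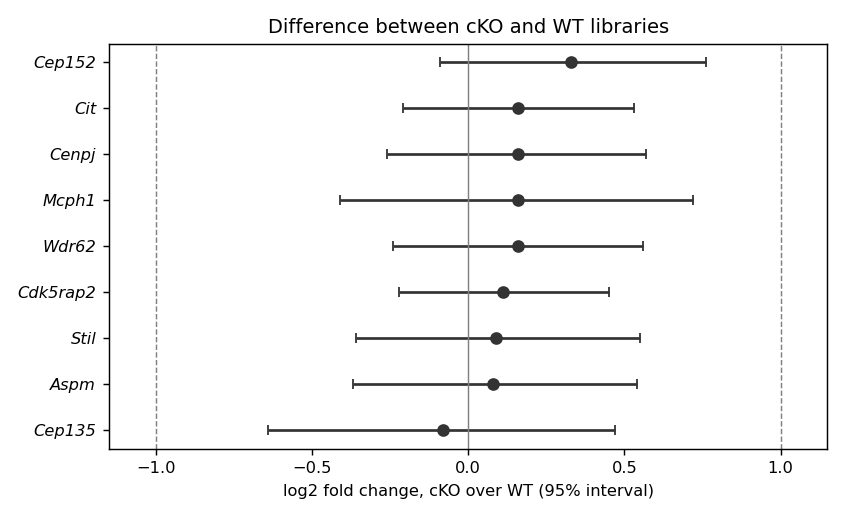
Points give the log2 fold change of cKO over WT for each gene with its 95% interval (horizontal bars, edgeR, 2 libraries per group), and dashed lines mark a 2-fold difference. All 9 intervals include 0 and end inside the dashed lines, and Cep152 lies farthest right at 0.33.

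The spread of these genes between the 2 cKO libraries was larger than counting error for most of them. cKO 1 was the highest of the 4 libraries for 7 of the 9 genes, against 23.7% of all genes tested, and the lowest for 0, against 27.3%. cKO 2 was the lowest for 4 (Aspm, Mcph1, Stil and Cep135), against 33.4%, and the highest for the remaining 2. The ratio of cKO 1 to cKO 2 was 1.51 for Cep135 (95% exact interval from the counts 1.3 to 1.75), 1.47 for Mcph1 (1.24 to 1.74), 1.44 for Aspm (1.34 to 1.55), 1.36 for Stil (1.22 to 1.51) and 1.2 for Cenpj (1.07 to 1.35). For Wdr62 (0.864, 0.776 to 0.962) and Cit (0.847, 0.781 to 0.918) cKO 2 was higher. Only for Cdk5rap2 (1.06, 0.999 to 1.12) and Cep152 (1.12, 0.988 to 1.27) did the interval include 1. These intervals cover counting error only. The share of all genes tested whose interval leaves 1 was not computed, here or for the WT libraries, so such counts are not shown to be particular to the 9 genes. Between the WT libraries the ratios of WT 1 to WT 2 ran from 0.895 to 1.19, and the interval left 1 for 3 of 9 genes, Aspm (0.895, 0.832 to 0.963), Cdk5rap2 (0.926, 0.874 to 0.982) and Cep135 (1.19, 1.04 to 1.37). For Cdk5rap2 the gap between the WT libraries (9.86 CPM) exceeded that between the cKO libraries (7.64 CPM).

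The order of the genes in that spread went with the base composition of their transcripts for most of them, but not for Mcph1. GC content was lowest in Aspm (44.3%), Cep135 (44.6%), Stil (44.9%) and Cenpj (45.1%), all of which were higher in cKO 1, and highest in Wdr62 (56.2%) and Cit (55.8%), which were higher in cKO 2. Between them in GC, Cdk5rap2 (49.4%), Mcph1 (49.5%) and Cep152 (50.6%) had log2 ratios of cKO 2 to cKO 1 of -0.08, -0.55 and -0.17. Over the 9 genes Pearson's r between GC and the log2 ratio of cKO 2 to cKO 1 was 0.87, a description of 9 points that share 2 libraries. The same held across 11336 genes with a mean count of at least 100 (r = 0.69 across genes, which are not independent replicates). There, those genes were split by GC into 5 groups of equal size, and the median log2 ratio of cKO 2 to cKO 1 ran from -0.48 in the group of lowest GC (31% to 44.6%) through -0.17, 0.03 and 0.19 to 0.31 in that of highest GC (56.2% to 73.7%). For WT 2 over WT 1 the medians ran only from -0.10 to 0.06 (r = 0.21).

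The log2 ratios of cKO 2 to cKO 1 were also set beside those of genes of like GC. Nearest the median of their GC group were Aspm (-0.52, median of its GC group -0.48), Cit (0.24, 0.19) and Cenpj (-0.26, -0.17). Wdr62 (0.21, 0.31), Cep135 (-0.59, -0.48) and Cdk5rap2 (-0.08, 0.03) came next. Stil (-0.44, -0.17) and Cep152 (-0.17, 0.03) lay farther below theirs. In all, 8 of the 9 genes, all but Cit, were below the median of genes of like GC. Only Mcph1, at -0.55 in a group with a median of 0.03, fell outside the range between the 10th and 90th percentiles (-0.31 to 0.33). In the contrast of cKO with WT the GC trend was weaker, with group medians from -0.12 to 0.06 (r = 0.34). With GC taken into account in the fit, the median log2 fold change of the 9 genes was 0.14, beside 0.16 without it. Single genes shifted more, and in both directions. Aspm rose from 0.08 to 0.14, Stil from 0.09 to 0.15, Cenpj from 0.16 to 0.21 and Cep135 from -0.08 to -0.03. Cit fell from 0.16 to 0.11 and Wdr62 from 0.16 to 0.12. The median of the centriole list described below went from 0.04 to 0.12.

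**Figure D3:**
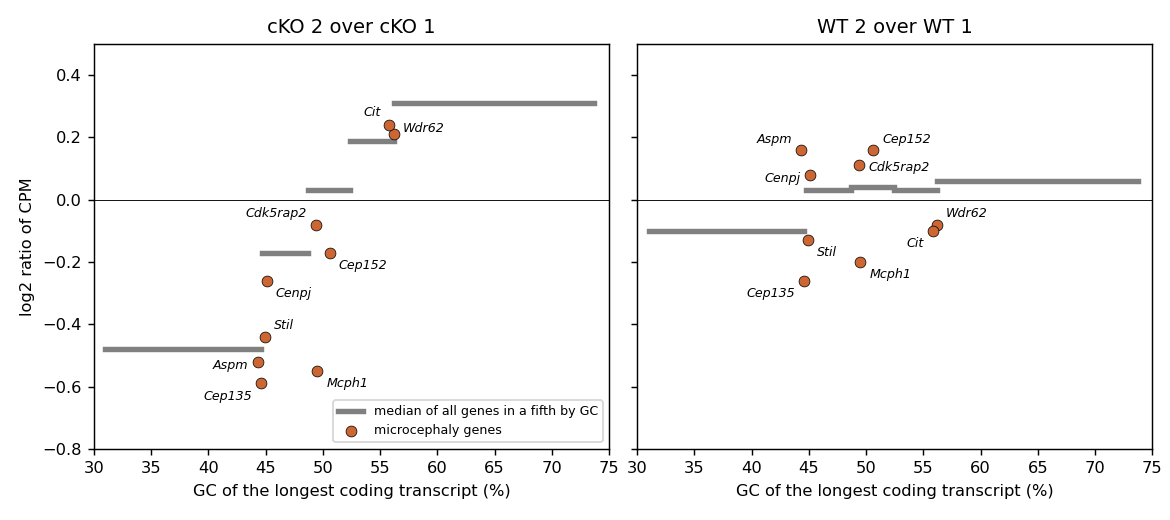
The log2 ratio of CPM of cKO 2 over cKO 1 (left) and of WT 2 over WT 1 (right) is plotted against the GC content in percent of the longest coding transcript, with the 9 genes as points and the median of all genes in each of the 5 GC groups as grey lines. On the left the points climb with GC from -0.59 (Cep135) to 0.24 (Cit) as the grey lines do, with Mcph1 below them, and on the right the grey lines stay between -0.10 and 0.06.

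Summed over the 9 genes, the level was 429 and 437 CPM in WT 1 and WT 2 and 501 and 442 CPM in cKO 1 and cKO 2. cKO 1 stood out, and cKO 2 was barely above WT 2. Scaled to library totals alone, the sums were 434, 434, 502 and 436. Summed proliferation genes (14 genes, Mki67, Top2a and Ccnb1 among them) were at 3192, 3247, 3632 and 3135 CPM in the same order. That sum was also highest in cKO 1, but it was lowest in cKO 2. Of the 14 genes, 8 were highest in cKO 1 (23.7% of all genes tested), and the others were highest in cKO 2 or WT 1. As a share of that proliferation sum the 9 genes made up 13.4% in WT 1 and WT 2 alike, and 13.8% and 14.1% in cKO 1 and cKO 2. The share was thus nearly level, and slightly higher in both cKO libraries. The sum of radial glial markers (8 genes) did not follow cKO 1 in this way, at 2334, 2201, 2364 and 2401 CPM. The 9 genes were 18.4%, 19.8%, 21.2% and 18.4% of that sum. Single markers differed, and 3 of the 8 (Pax6, Slc1a3 and Prom1) were highest in cKO 1 and lowest in cKO 2, as Aspm was. Nes, Vim and Fabp7 were highest in cKO 2, and Sox2 and Hes5 in WT 1. Neuronal markers (7 genes) summed to 5050, 5859, 5502 and 4875 CPM, a sum that was lowest in cKO 2. Dcx, Map2, Neurod6, Tbr1 and Bcl11b were each lowest in cKO 2, whereas Tubb3 and Stmn2 were highest there and lowest in cKO 1.

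**Figure D4:**
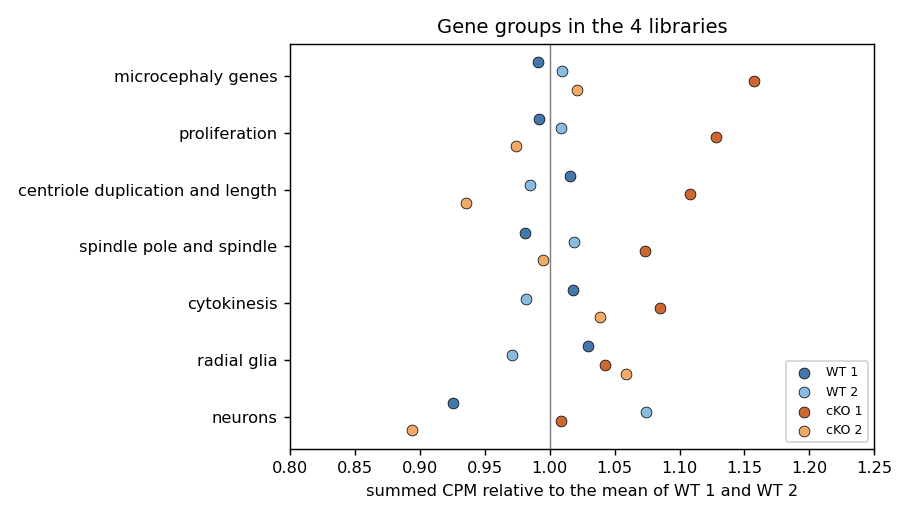
Summed CPM of gene groups in each library is plotted relative to the mean of WT 1 and WT 2, which is set to 1 (the axis does not start at 0). The microcephaly genes, proliferation, centriole, spindle and cytokinesis groups are each highest in cKO 1, whereas radial glial markers are highest in cKO 2.

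The summed pattern was compared with that of 11332 genes with a mean count of at least 100 by the root mean square difference of centred log2 CPM over the 4 libraries. The nearest were Clint1 (0.007), Shisa2 (0.012), Kif4 (0.013), Sfxn5 (0.014) and Pdp2 (0.015), where a gene with equal levels in all libraries would stand at 0.088 and the median gene stood at 0.167. Kif4, a chromosome-bound kinesin of mitosis, measured 64.4 and 67.1 CPM in WT 1 and WT 2 and 75.4 and 66.9 CPM in cKO 1 and cKO 2. Clint1, an adaptor of clathrin-coated vesicles, measured 78.8, 79.5, 91.2 and 81.2 CPM. With 4 libraries many genes share a pattern, and nothing about common control follows. Among the 9 genes themselves, Wdr62 and Cit were the closest pair (0.014), followed by Mcph1 and Stil (0.054) and by Cdk5rap2 and Cenpj (0.068). Each of these pairs was mutual, the members being each other's nearest.

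Levels of different genes can be compared only per length. Per kilobase of annotated exon, Cdk5rap2 was highest at a mean of 10.3 CPM (9.55 to 11 over the 4 libraries). Aspm (7.33), Stil (6.83), Cenpj (6.45) and Wdr62 (6.26) came next with overlapping ranges. Cep152 (4.23), Cit (3.88), Cep135 (3.08) and Mcph1 (2.01) formed the lower end, each overlapping its neighbour in the order. Only the steps from Cdk5rap2 to Aspm (6.19 to 8.9) and from Wdr62 (5.74 to 7.09) to Cep152 (3.54 to 4.98) exceeded the spread over libraries. The order depends on the length used, since annotated exon runs from 4874 bases in Cenpj to 16417 in Cit, and with coding length only 2 of the 9 genes kept their rank.

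**Figure D5:**
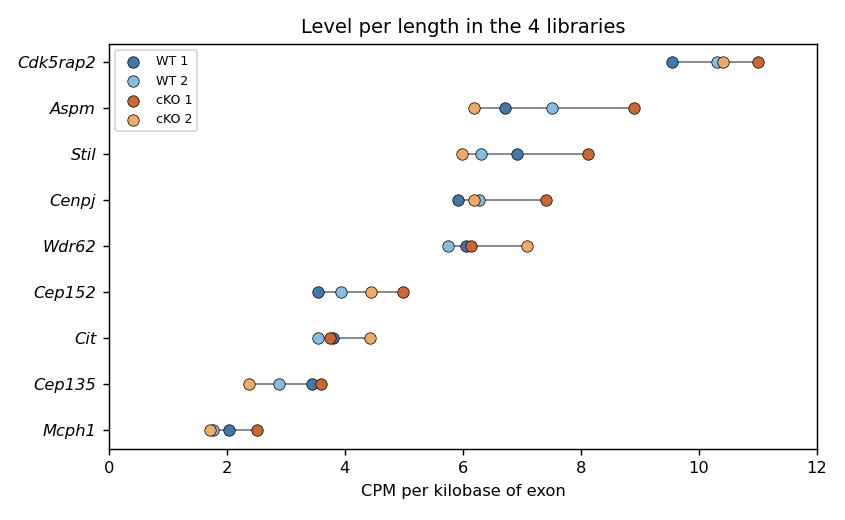
Levels in CPM per kilobase of annotated exon are plotted for each gene in the 4 libraries (points, joined by a line from lowest to highest), in order of the mean. Cdk5rap2 lies apart above 9, a middle group from Aspm to Wdr62 lies between 5.74 and 8.9, and Mcph1 is lowest.

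Genes that work beside the 9 were taken from lists by function, and 0 genes of the centrosome, spindle, division and proliferation lists passed the study's thresholds. Of 19 other genes of primary microcephaly, 14 had log2 fold changes above 0, with a median of 0.05 and a range of -0.10 to 0.22. Knl1, the kinetochore scaffold, was at 34.5, 33.6, 42.6 and 21 CPM in WT 1, WT 2, cKO 1 and cKO 2, and so was highest in cKO 1 and lowest in cKO 2 like Aspm. Zfp335 (46.5, 50.9, 48.1 and 54.7 CPM) and Phc1 (201, 212, 202 and 212 CPM), regulators of transcription and chromatin, did not show that order.

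In the centriole pathway, 11 of 16 genes were above 0, with a median of 0.04. Plk4, the kinase that starts duplication, was at 38.2, 32.9, 45.6 and 31 CPM in WT 1, WT 2, cKO 1 and cKO 2, and Sass6, the cartwheel protein, at 9.37, 11.6, 14.1 and 6.16 CPM. Both repeated the spread between cKO libraries seen for Stil, their partner. Cep63, which pairs with Cep152 at the mother centriole, had 38, 35.7, 37.2 and 34.2 CPM (log2 fold change -0.04 ± 0.17 SE) and did not share the higher cKO values of Cep152.

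Among pericentriolar material and gamma-tubulin genes 10 of 13 were above 0 (median 0.07), and the scaffold Pcnt was at 82.1, 80.5, 84.9 and 88.5 CPM. Of 17 spindle genes 13 were above 0 (median 0.06), and Numa1, which anchors dynein at the pole, was at 427, 452, 441 and 510 CPM. Cytokinesis genes had the highest median of these lists, 0.11, and in 7 of 13 both cKO libraries lay above both WT libraries (11.0% of all genes tested). Kif20a, a kinesin of the central spindle, was among those 7, at 53.3, 59.8, 68.6 and 64 CPM. The list of Mcph1 partners, condensin and damage response gave 10 of 15 above 0 and a median of 0.07. Its condensin II subunit Ncapg2 was at 41.4, 30.6, 43.3 and 17.2 CPM, the same order of libraries as Mcph1. Ncaph2, another condensin II subunit, was at 171, 158, 156 and 189 CPM, lowest in cKO 1 and highest in cKO 2. Proliferation genes gave 11 of 14 above 0 and a median of 0.08. The 9 genes' median of 0.16 stood above that of each of these lists, a difference that was not tested and that rested in part on cKO 1. Without it the 9 genes' median of 0.02 lay below those of spindle (0.07), pericentriolar (0.06), cytokinesis (0.05) and other microcephaly genes (0.04). It still lay above those of proliferation genes (-0.03), Mcph1 partners (-0.09) and centriole genes (-0.12).

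Markers of meninges, choroid plexus and hem, blood, endothelium, microglia and ventral forebrain had list medians below 0, and 3 of these medians changed sign without WT 1. Among the remaining marker lists the median was 0.18 for telencephalon, 0.07 for radial glia, 0.08 for intermediate progenitors and -0.07 for neurons. All 6 meningeal and mesenchymal genes had log2 fold changes below 0 (median -1.57), with sums of 283, 52.6, 75.6 and 39.7 CPM in WT 1, WT 2, cKO 1 and cKO 2. The 2 that passed the study's thresholds were the collagen genes Col1a1 (66.7, 9.72, 12.1 and 5.93 CPM) and Col1a2 (74.9, 12.5, 18.6 and 10.3 CPM). Endothelial markers (4 genes) summed to 146, 110, 97.6 and 97.2 CPM, blood markers (5 genes) to 906, 504, 404 and 616 CPM, and microglial markers (4 genes) to 30.7, 22.8, 19.6 and 23.6 CPM. Each of these sums was highest in WT 1. That library was lowest for 3 of the 9 genes (Cdk5rap2, Cenpj and Cep152), against 21.1% of all genes tested. Ventral forebrain markers (4 genes) summed to 660, 616, 384 and 663 CPM and were lowest in cKO 1. In that library 7 of the 9 genes were highest, against 23.7% of all genes tested. Choroid plexus and hem markers (5 genes, 3 tested) summed to 38.6, 7.93, 6.45 and 10.5 CPM, and 1 of them, Otx2 (20.6, 6.73, 3.88 and 7 CPM), passed the thresholds. The part of these differences in the values of the 9 genes was not tested. Without WT 1 the median log2 fold change was 0.17 for meningeal markers (from -1.57), 1.13 for choroid plexus and hem (from -1.43), 0.01 for blood (from -0.37), -0.16 for endothelium (from -0.41) and -0.07 for microglia (from -0.15), while that of the 9 genes was 0.16.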

How the data were processed

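The data were RNA-seq counts from E13 mouse telencephalon in 4 libraries. The authors deposited raw counts of reads per gene, and the submitters' notes name TopHat2 2.0.12, Bowtie2 2.2.3, HTSeq 0.6.0 and mm9. The strand setting of counting is not given in the sources used here. Positions in the deposited table matched GENCODE M21 (GRCm38) within 1 base for 97.3% of 27232 genes, and those of all 9 genes exactly, so GRCm38 coordinates are given. In all, 11 blank rows (0.0403% of 27304) were left out. A second deposited table of WT 1 and cKO 1 held the same counts for the 9 genes (18 of 18 identical) and was otherwise not used. Deposited fold changes, p-values and normalized means compare the same groups and were not used. Groups and replicate numbers follow the labels.

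Counts were filtered with filterByExpr, leaving 16145 genes, scaled by TMM and tested with edgeR 4.0.16 (quasi-likelihood, cKO over WT, 2 libraries per group, Benjamini-Hochberg adjustment) in R 4.3.3, with limma 3.58.1 and DESeq2 1.42.0 as alternatives. The fit was tested on simulated data. Standard errors come from the fitted information and the moderated dispersion, and intervals are 95%. GC content is that of the longest coding transcript, and level per kilobase uses all annotated exon bases. Named besides the 9 are list genes past the study's thresholds, up to 3 others per list in its own order, the 5 genes nearest by pattern and overlapping genes. Tmem173 is named as the targeted gene. The genes and lists were chosen with earlier results of these data known. The markers En2, Hoxb2 and Hoxb4 were not analysed here.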

Additional observations from a re-analysis of the deposited data

How the results depend on the processing

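Under 9 alternatives of scaling, filter, tool, pairing and GC, all 81 log2 fold changes of the 9 genes kept their sign, and 0 genes of the 9 passed the study's thresholds under any alternative. With 1 library left out (its group then assumed to vary like the other), 31 of 36 kept their sign. Values ran from -0.20 (without cKO 1) to 0.34 for Aspm, -0.14 (without cKO 1) to 0.42 for Mcph1, -0.14 (without cKO 1) to 0.31 for Stil and -0.41 to 0.20 (without cKO 2) for Cep135, which was 0.05 without WT 1. The cause was not tested. Their median ran from 0.02 (without cKO 1) to 0.29 (without cKO 2), and elsewhere from 0.14 to 0.17. The 131 genes at the study's thresholds became 405 without a filter, 72 with a minimum of 10 counts in all libraries, 82 with DESeq2, 208 with the replicate block and 14 at p of at most 0.01, and ran from 104 (without WT 1, 57 of them higher) to 531 (without cKO 1) with a library left out, being 476 without WT 2. Genes at an adjusted p under 0.05 were 0, 65 without a filter, 5 with the replicate block, and 0 (without cKO 2) to 116 (without WT 2) with a library left out, being 105 without cKO 1 and 7 without WT 1. Nothing states that replicate numbers pair the libraries, and deviations of same-numbered libraries correlated at 0.14 over genes. In order of level, 5 genes kept their rank without length correction and 2 with coding length, an alternative added, like the GC correction, after seeing the data. Coding length from RefSeq proteins was not run. With 2 libraries per group, log2 standard errors of 0.14 to 0.25 limit what could be detected.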
